A study of Mus musculus with 36 samples.

Results

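Interferon-stimulated genes are the genes that a cell switches on when interferon binds its receptors. Their RNA was followed in macrophages washed from the lungs of Scnn1b-Tg mice and their WT littermates, on 36 Affymetrix Mouse Gene 1.0 ST arrays. The list held 38 genes, 33 of a type I class and 5 of an interferon gamma class (the GTPases Gbp2, Gbp3, Irgm1 and Igtp, and the chemokine Cxcl9). A gene was measured where a feature of the array, that is 1 set of probes with a single value per array, was annotated with that gene's symbol and no other. By this rule 34 of the 38 genes had a feature, 30 of type I and 4 of the gamma class, out of 28940 analysed features for 18820 genes. No feature was found for Ifi44, and Igtp, Dtx3l and Parp9 were annotated only together with another gene, so that their levels are not reported here.

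Scnn1b-Tg (Tg) mice carry a transgene for Scnn1b, which is the beta chain of the airway sodium channel ENaC, driven in airway club cells, which dehydrates the airway surface and leads to retained mucus. The promoter is thus one of the airway epithelium and not of the macrophages that were measured. All mice were male and of the strain C57Bl/6N Tac. Under specific pathogen free (SPF) housing, macrophages were taken at postnatal day (PND) 0 from 3 WT and 3 Tg pools, at PND 3 and PND 10 from 4 pools of each genotype, and at PND 42 from 4 single mice of each. From germ-free (GF) housing there were 3 WT and 3 Tg mice, all at PND 42. Each pool held the cells of 3 pups of 1 genotype, and all cells had been depleted of granulocytes with antibody to Ly-6G.

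Type I interferons are made by most cells that sense foreign nucleic acid, and they act through the receptor chains Ifnar1 and Ifnar2 to assemble a complex that holds Stat2 and Irf9 and binds a DNA element called the ISRE. Interferon gamma comes mostly from T and NK cells and acts through Ifngr1 and Ifngr2 and a DNA element called GAS, and it strongly induces GTPases of the Gbp and Irg families and Cxcl9. The classes overlap, since many genes, among them Cxcl10 of the type I class, respond to both interferons. In the lung these genes are best known from viral infection, where alveolar macrophages are a source and a target of type I interferon.

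The values are log2 intensities, so that a difference of 1 is a 2-fold difference. Array medians over the analysed features lay between 3.72 and 4.06, and a group mean at or below 4.06 is called near background here, since no detection call came with the values. A gene is said to have risen or fallen, or to be called, where the p of limma, adjusted over all 28940 features, was 0.05 or less. Of the alveolar macrophage markers all 11 lay above this level on every array but Tg PND 0 array 1, where 10 did. The airway and alveolar epithelium list had a mean of 8.61 to 9.45 on the PND 0 arrays and 5.02 to 5.95 on all later ones. The skeletal muscle list had a mean of 6.09 to 7.28 on the 3 Tg PND 0 arrays and of 3.53 to 3.98 on all others. In such bulk samples fewer cells of a type and less RNA per cell cannot be told apart. All p-values measure how far pools, or mice at PND 42, of a group differ, as 1 estimate over the 10 groups, and the number of arrays limits the precision.

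Levels differed among the members. Of the 34 genes, 16 lay above background in every group, among them the antiviral tetherin Bst2 (group means 6.85 to 8.79), the ubiquitin ligase Trim25 (8.20 to 8.999), the growth-restricting Samd9l (7.03 to 8.48), the RNA-activated kinase Eif2ak2 (6.03 to 7.14) and the antiviral Ifi35 (5.92 to 7.23). The group means of Stat2 spanned 4.995 to 7.36 and those of Irf9, its partner, 5.49 to 5.99. At the other end 5 genes, all of type I, lay near background in every group, namely Ifit3, Mx1, Mx2, Oasl1 and the nucleotide kinase Cmpk2, of which Mx2 and Cmpk2 reached the highest array median on none of the 36 arrays. Mx1 carries a deletion in C57BL/6 mice, which makes no working Mx1 protein. Ifit1, Ifit2, Oas3 and the ISG15 protease Usp18 were near background in 8 of 10 groups. The map of all 34 genes shows several genes high on 1 array of each genotype at PND 3 and on Tg GF array 3, and a few, led by Rsad2 and Isg15, on Tg PND 0 arrays 1 and 3.

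**Figure D1:**
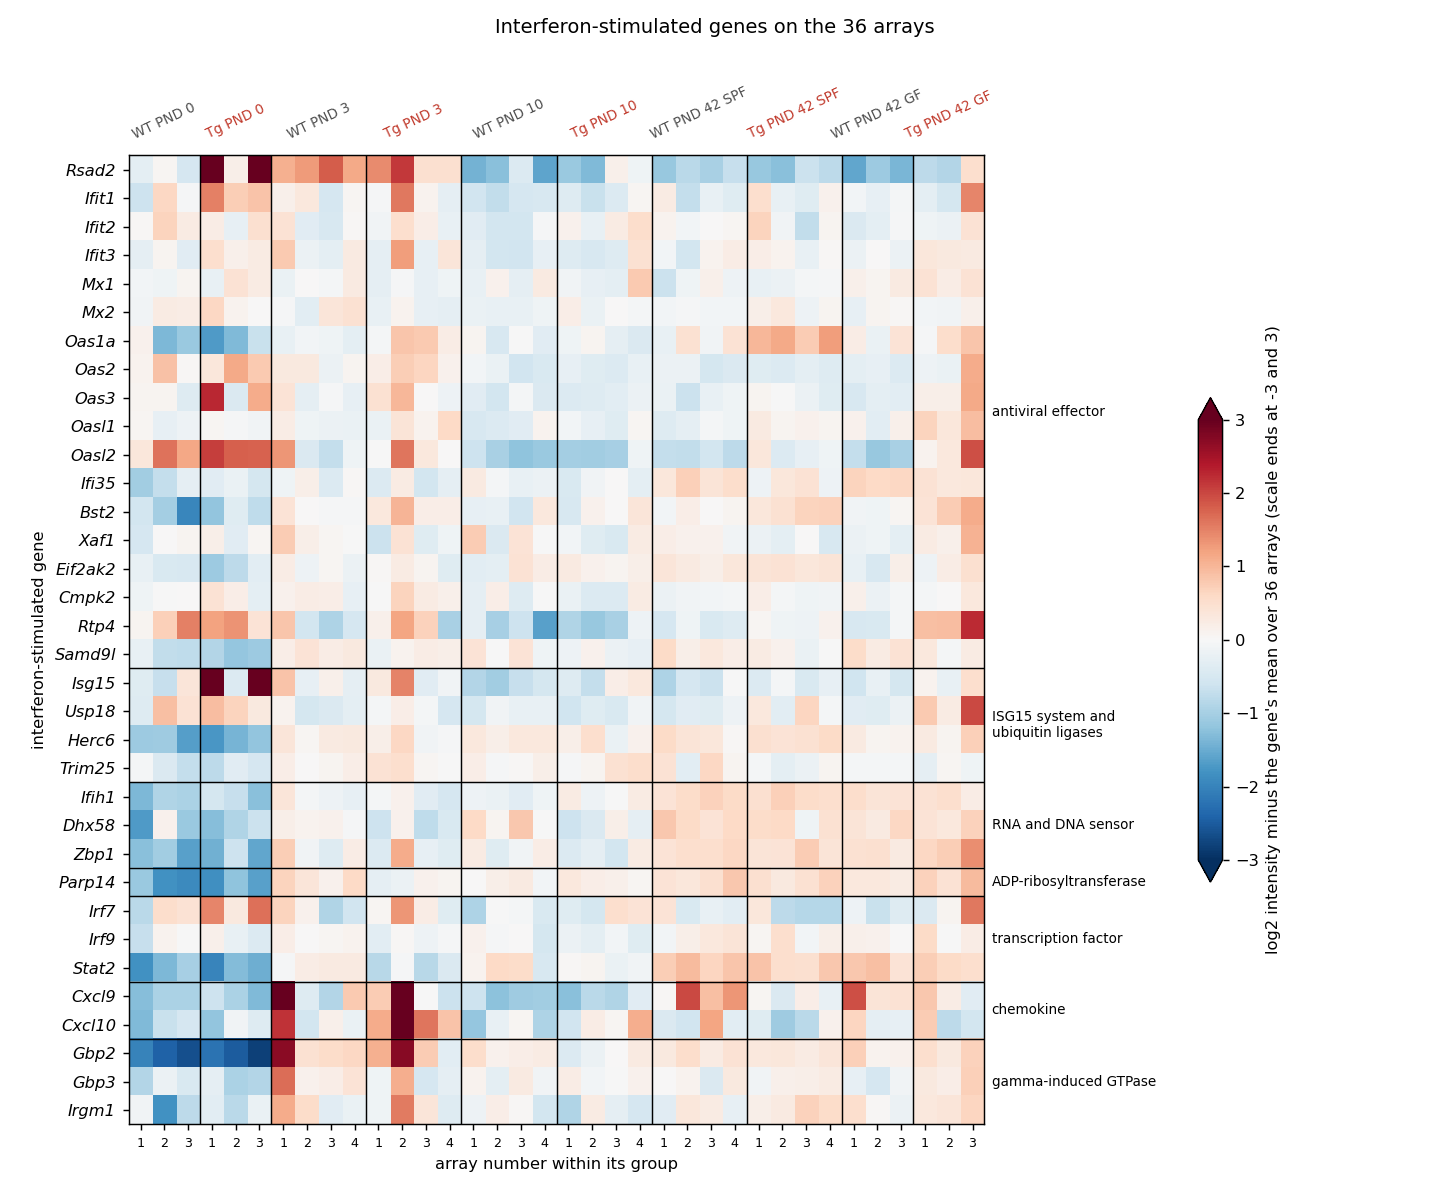
Each row is a measured interferon-stimulated gene, grouped by its role, and each column is 1 array, grouped by genotype, age and housing; colour gives the log2 intensity minus the gene's mean over the 36 arrays, with the scale ending at -3 and 3. Rsad2 and Isg15 stand out on Tg PND 0 arrays 1 and 3, the chemokines and gamma-induced GTPases on WT PND 3 array 1 and Tg PND 3 array 2, and several type I genes on Tg GF array 3.

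The promoters of some of the genes that carry these patterns are given first. Of the 38 genes 29 had a promoter in the RefSeq table (build GRCm38.p6), which was searched over the 250 bases before the start of transcription for the ISRE core GAAANNGAAA and the GAS core TTCNNNGAA on both strands. The ISRE core was found in 13 of the 29 genes (44.8%), 9 of 24 of type I and 4 of 5 of the gamma class, against 3.46% of 27025 genes in the table. The GAS core was found in 5 of the 29 (17.2%) against 8.13% of all genes. A match is a description of the letters and not a binding site, and where there is none these letters are only missing from this window. Printed below, 5′ to 3′ on the gene's strand and with the ISRE core in capitals, are Rsad2 and Isg15, which were high together at PND 0, Cxcl10, Gbp2 and Irgm1, which were high together on 2 arrays at PND 3, Oas1a and Stat2, which were called at PND 42 and PND 3, and Cxcl9, whose window held neither core. In Oas1a the separate stretch of capitals farther from the start is a GAS core. Not printed are Irf7, Oasl1 and Oasl2, the latter 2 called in GF mice, whose windows held neither core either. Usp18 and Rtp4, also called in GF mice, had no promoter in the RefSeq table.
Rsad2 (chr12:26456453-26456702, minus strand): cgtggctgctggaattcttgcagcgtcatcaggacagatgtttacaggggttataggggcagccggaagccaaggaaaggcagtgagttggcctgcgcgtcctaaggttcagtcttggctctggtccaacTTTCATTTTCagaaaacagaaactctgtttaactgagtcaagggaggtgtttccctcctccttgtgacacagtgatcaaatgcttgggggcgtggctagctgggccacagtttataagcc
Isg15 (chr4:156200819-156201068, minus strand): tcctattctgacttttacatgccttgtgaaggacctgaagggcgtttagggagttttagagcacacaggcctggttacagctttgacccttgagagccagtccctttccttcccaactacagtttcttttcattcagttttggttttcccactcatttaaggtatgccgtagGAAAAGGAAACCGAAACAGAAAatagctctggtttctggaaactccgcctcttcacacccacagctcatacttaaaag
Oas1a (chr5:120907526-120907775, minus strand): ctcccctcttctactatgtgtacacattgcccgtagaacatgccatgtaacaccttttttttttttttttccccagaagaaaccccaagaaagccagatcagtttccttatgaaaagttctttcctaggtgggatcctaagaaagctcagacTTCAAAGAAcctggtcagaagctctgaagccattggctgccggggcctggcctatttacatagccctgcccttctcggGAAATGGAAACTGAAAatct
Stat2 (chr10:128270248-128270497, plus strand): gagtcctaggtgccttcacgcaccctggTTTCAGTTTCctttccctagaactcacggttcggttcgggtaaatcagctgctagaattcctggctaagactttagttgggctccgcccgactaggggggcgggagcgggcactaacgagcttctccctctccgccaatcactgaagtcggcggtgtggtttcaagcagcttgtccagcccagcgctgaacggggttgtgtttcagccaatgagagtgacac
Cxcl10 (chr5:92348890-92349139, minus strand): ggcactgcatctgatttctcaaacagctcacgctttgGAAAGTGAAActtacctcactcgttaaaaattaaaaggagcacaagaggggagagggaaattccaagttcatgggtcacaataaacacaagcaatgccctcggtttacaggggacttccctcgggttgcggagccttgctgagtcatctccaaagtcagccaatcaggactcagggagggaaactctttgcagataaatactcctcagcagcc
Gbp2 (chr3:142620413-142620662, plus strand): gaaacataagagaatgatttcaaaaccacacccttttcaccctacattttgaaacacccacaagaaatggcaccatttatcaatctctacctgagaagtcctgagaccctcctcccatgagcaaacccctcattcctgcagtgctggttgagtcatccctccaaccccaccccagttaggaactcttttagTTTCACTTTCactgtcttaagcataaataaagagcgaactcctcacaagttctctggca
Irgm1 (chr11:48871421-48871670, minus strand): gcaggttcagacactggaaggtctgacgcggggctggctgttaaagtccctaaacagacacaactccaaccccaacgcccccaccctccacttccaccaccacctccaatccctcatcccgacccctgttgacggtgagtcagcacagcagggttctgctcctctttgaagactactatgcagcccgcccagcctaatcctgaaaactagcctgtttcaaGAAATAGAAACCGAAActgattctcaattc
Cxcl9 (chr5:92328080-92328329, minus strand): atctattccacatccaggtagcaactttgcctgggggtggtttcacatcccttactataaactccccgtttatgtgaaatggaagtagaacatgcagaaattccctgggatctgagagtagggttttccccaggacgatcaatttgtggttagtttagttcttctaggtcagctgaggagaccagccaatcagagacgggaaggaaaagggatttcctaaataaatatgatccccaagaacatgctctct
In Isg15 the capitals hold 3 overlapping ISRE cores, and in Oas1a and Irgm1 a pair of them overlap, while Rsad2, Stat2, Cxcl10 and Gbp2 have 1 each. The distance from the start to the first base of the match nearest to it was 14 bases in Oas1a, 24 in Irgm1, 59 in Gbp2, 66 in Isg15, 120 in Rsad2, 213 in Cxcl10 and 222 in Stat2.

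Isg15, a ubiquitin-like protein that is joined to other proteins during an interferon response, was followed on every array. At PND 0 it was 5.01, 4.66 and 5.73 in WT and 9.49, 4.96 and 8.44 in Tg, and at PND 3 6.21, 5.12, 5.51 and 5.08 in WT and 5.65, 6.86, 5.02 and 5.25 in Tg. At PND 10 it was 4.48, 4.32, 4.66 and 4.84 in WT and 4.98, 4.66, 5.56 and 5.68 in Tg, and at PND 42 4.43, 4.86, 4.72 and 5.34 in SPF WT, 4.95, 5.31, 4.91 and 5.11 in SPF Tg, 4.77, 5.13 and 4.84 in GF WT and 5.47, 5.14 and 5.86 in GF Tg mice. The 2 high Tg pools at PND 0 were above every other array of the series, and the third Tg pool lay among the WT pools.

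Rsad2 encodes viperin, an enzyme that makes a chain-terminating nucleotide against viruses. Its level at PND 0 was 4.61, 4.97 and 4.41 in WT and 10.55, 5.09 and 9.73 in Tg, and at PND 3 5.99, 6.20, 6.72 and 6.05 in WT and 6.32, 7.04, 5.39 and 5.39 in Tg. Its level at PND 10 was 3.49, 3.67, 4.51 and 3.33 in WT and 3.80, 3.58, 5.07 and 4.79 in Tg, and at PND 42 3.79, 4.10, 3.95 and 4.23 in SPF WT, 3.79, 3.66, 4.28 and 4.13 in SPF Tg, 3.37, 3.82 and 3.54 in GF WT and 4.14, 4.04 and 5.43 in GF Tg mice. The same 2 Tg pools were the highest, all 8 PND 3 pools lay above the WT pools of PND 0, and the PND 10 and PND 42 arrays lay below all PND 3 pools but for Tg GF array 3, which was above the lowest 2 of them.

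Irf7 is the transcription factor that amplifies type I interferon production. At PND 0 it was 3.69, 5.03 and 4.95 in WT and 5.96, 4.79 and 6.17 in Tg, and at PND 3 5.18, 4.63, 3.60 and 3.93 in WT and 4.57, 5.83, 4.74 and 4.15 in Tg. At PND 10 it was 3.58, 4.49, 4.45 and 4.05 in WT and 4.15, 3.99, 5.01 and 4.92 in Tg, and at PND 42 4.92, 4.05, 4.29 and 4.19 in SPF WT, 4.85, 3.72, 3.66 and 3.65 in SPF Tg, 4.35, 3.84 and 4.12 in GF WT and 4.08, 4.59 and 6.08 in GF Tg mice. Its groups overlapped at every age, and its highest arrays were Tg PND 0 array 3 and Tg GF array 3.

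Cxcl10 attracts T and NK cells. Its level at PND 0 was 3.06, 3.73 and 3.89 in WT and 3.21, 4.30 and 4.01 in Tg, and at PND 3 6.56, 3.84, 4.54 and 4.20 in WT and 5.51, 7.59, 5.995 and 5.24 in Tg. Its level at PND 10 was 3.23, 4.17, 4.44 and 3.47 in WT and 3.82, 4.62, 4.46 and 5.49 in Tg, and at PND 42 3.96, 3.81, 5.58 and 4.07 in SPF WT, 4.02, 3.32, 3.60 and 4.53 in SPF Tg, 5.04, 4.12 and 4.15 in GF WT and 5.16, 3.60 and 3.85 in GF Tg mice. At PND 3 the 4 Tg pools and WT array 1 lay above the other 3 WT pools.

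Cxcl9 binds the same receptor as Cxcl10 and depends more on interferon gamma. At PND 0 it was 3.33, 3.66 and 3.66 in WT and 3.99, 3.67 and 3.29 in Tg, and at PND 3 7.75, 4.22, 3.72 and 5.39 in WT and 5.37, 7.94, 4.58 and 3.96 in Tg. At PND 10 it was 3.99, 3.38, 3.54 and 3.56 in WT and 3.35, 3.80, 3.71 and 4.26 in Tg, and at PND 42 4.65, 6.58, 5.51 and 5.93 in SPF WT, 4.66, 4.18, 4.80 and 4.39 in SPF Tg, 6.53, 4.98 and 5.03 in GF WT and 5.40, 4.82 and 4.26 in GF Tg mice. It was near background at PND 0 and PND 10 in both genotypes, and at PND 3 it stood far above the other pools on 1 array of each genotype.

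Gbp2 is a guanylate-binding protein that acts on the vacuoles of microbes. Its level at PND 0 was 4.02, 3.60 and 3.39 in WT and 3.79, 3.51 and 3.21 in Tg, and at PND 3 8.73, 6.47, 6.57 and 6.64 in WT and 7.09, 8.75, 6.77 and 5.71 in Tg. Its level at PND 10 was 6.54, 6.15, 6.21 and 6.27 in WT and 5.61, 5.84, 6.04 and 6.28 in Tg, and at PND 42 6.31, 6.53, 6.27 and 6.46 in SPF WT, 6.34, 6.36, 6.27 and 6.37 in SPF Tg, 6.73, 6.12 and 6.14 in GF WT and 6.53, 6.31 and 6.70 in GF Tg mice. All 6 PND 0 pools lay below all 30 later arrays, and the genotypes overlapped at every age.

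Irgm1 is a GTPase of the same defence. At PND 0 it was 6.20, 4.49 and 5.53 in WT and 5.99, 5.51 and 6.10 in Tg, and at PND 3 7.43, 6.86, 5.98 and 6.10 in WT and 6.18, 7.86, 6.68 and 5.92 in Tg. At PND 10 it was 6.15, 6.498, 6.35 and 5.76 in WT and 5.41, 6.55, 6.04 and 5.81 in Tg, and at PND 42 5.96, 6.65, 6.55 and 6.07 in SPF WT, 6.49, 6.57, 7.002 and 6.86 in SPF Tg, 6.81, 6.35 and 6.14 in GF WT and 6.63, 6.66 and 6.94 in GF Tg mice. It was above background on every array and highest on the 2 PND 3 arrays that were also highest for Cxcl9 and Gbp2.

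**Figure D2:**
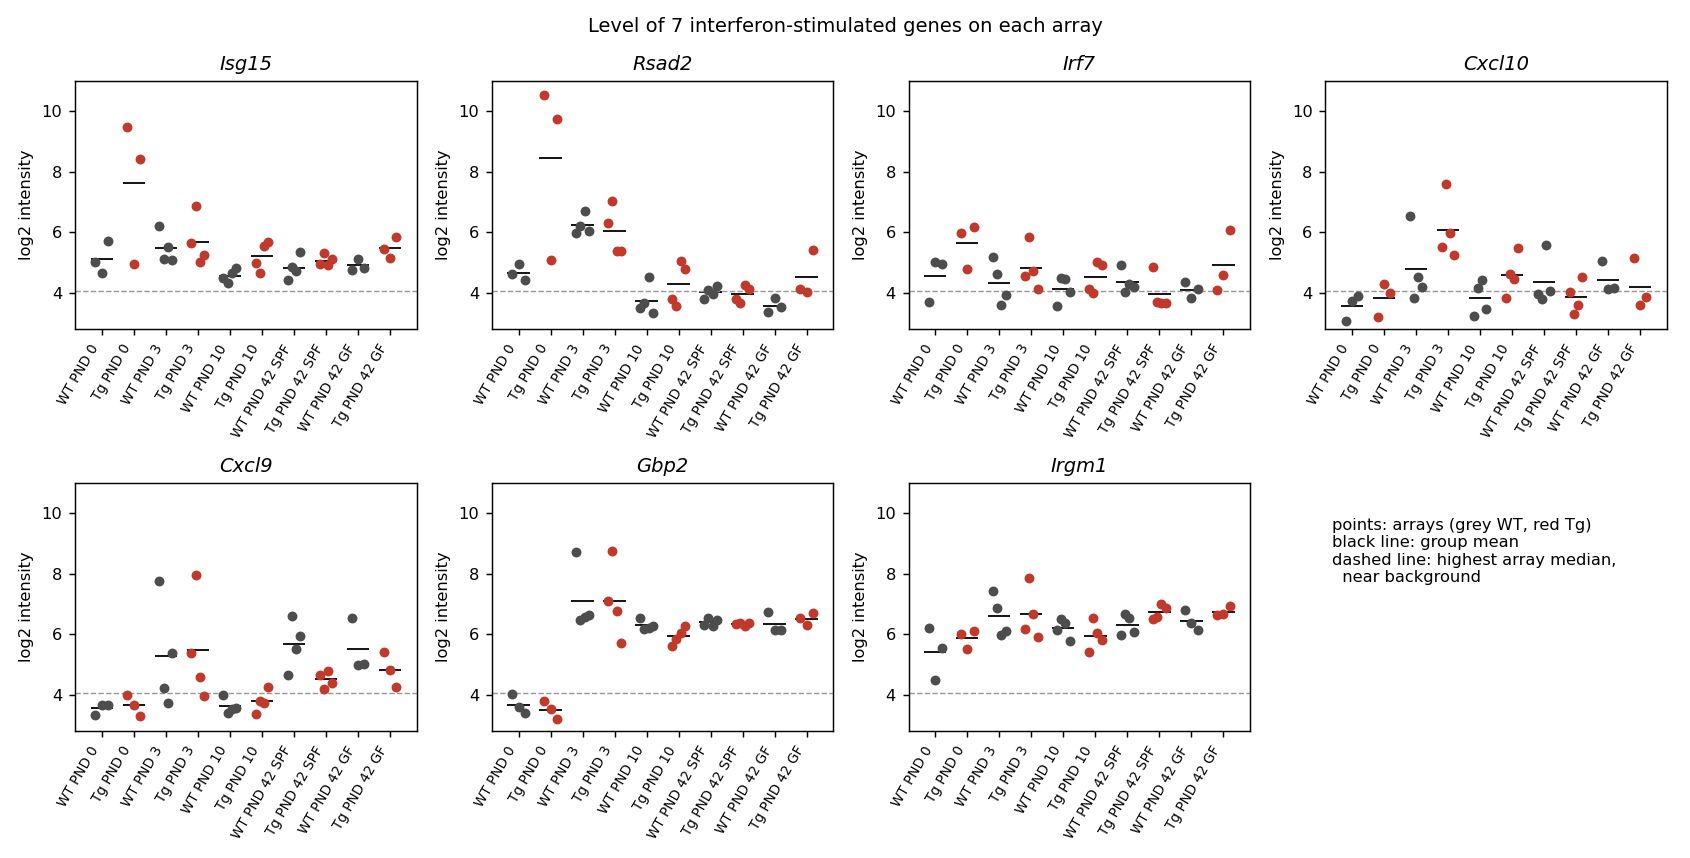
Each point is 1 array (grey WT, red Tg), the vertical axis is log2 intensity, the black line is the group mean and the dashed line at 4.06 the highest array median. In Isg15 and Rsad2, 2 of 3 Tg pools stand above all else at PND 0, and in Cxcl9, Cxcl10, Gbp2 and Irgm1 1 array of each genotype does so at PND 3.

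Averaged over its 30 genes, the type I class had a mean level of 4.83 ± 0.15 (SD, n = 3) in WT and 5.22 ± 0.18 (n = 3) in Tg at PND 0, 5.28 ± 0.23 and 5.36 ± 0.39 (n = 4 each) at PND 3, and 4.95 ± 0.06 and 5.04 ± 0.18 (n = 4 each) at PND 10. At PND 42 it was 5.20 ± 0.05 and 5.26 ± 0.09 in SPF housing (n = 4 each) and 5.13 ± 0.05 and 5.57 ± 0.34 in GF housing (n = 3 each). The GF Tg mice were the only group of PND 42 whose spread between arrays exceeded 0.10.
The gamma class had a mean of 4.11 ± 0.14 in WT and 4.15 ± 0.26 in Tg at PND 0, 5.97 ± 1.03 and 5.89 ± 1.12 at PND 3, 5.10 ± 0.15 and 5.01 ± 0.20 at PND 10, 5.67 ± 0.31 and 5.50 ± 0.11 in SPF and 5.57 ± 0.40 and 5.70 ± 0.11 in GF mice at PND 42. Its genotype means thus differed by less than the larger of the 2 SDs in every setting, and its spread was largest at PND 3.

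**Figure D3:**
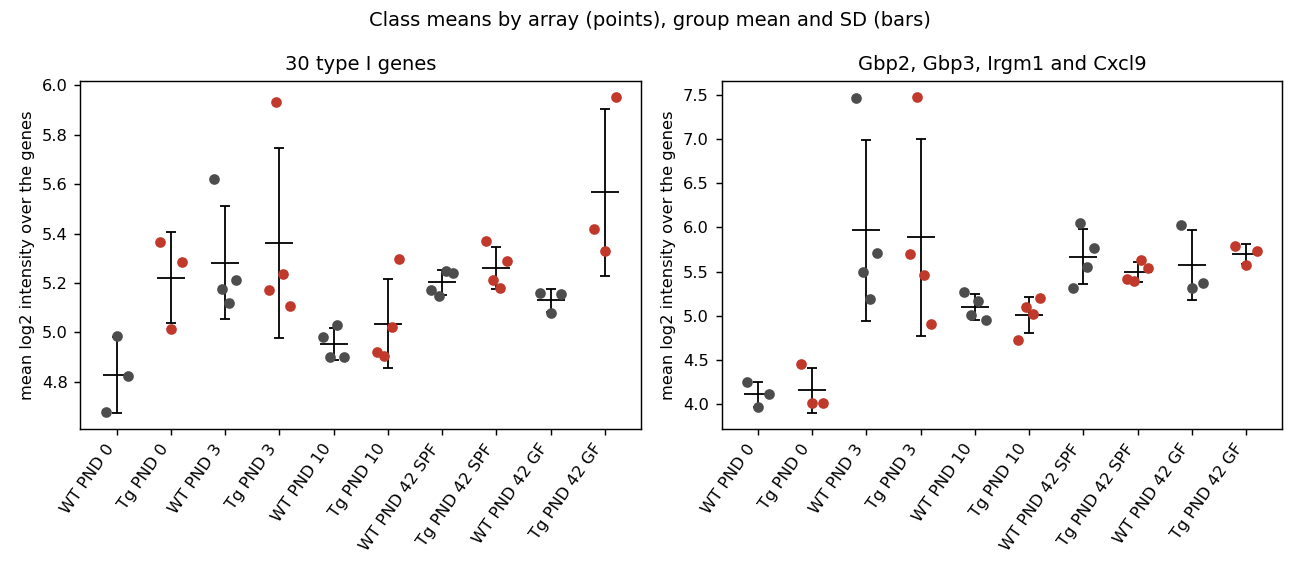
Points are arrays (grey WT, red Tg), with the mean log2 intensity over the 30 type I genes on the left and over Gbp2, Gbp3, Irgm1 and Cxcl9 on the right; the long tick is the group mean and the bars are 1 SD. WT PND 3 array 1 (7.47) and Tg PND 3 array 2 (7.48) lead the gamma class, and Tg GF array 3 (5.95) and Tg PND 3 array 2 (5.94) the type I class.

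At PND 0 the comparison asks how Tg and WT macrophages differ at birth. Rsad2 was 13.9-fold higher in Tg than in WT pools (3.79 ± 0.74 on the log2 scale, SE, limma adjusted p = 0.00221) and Isg15 5.64-fold (2.495 ± 0.61, adjusted p = 0.0156). These 2 of 34 members rose and 0 fell, that is 2 of 30 type I genes and 0 of 4 of the gamma class, where 2.74% of all features rose and 1.59% fell. The Tg pools did not overlap with the WT pools in Rsad2, though Tg array 2 was close to the highest WT pool (5.09 and 4.97), and in Isg15 2 of 3 Tg pools were above all WT pools. The groups did not overlap in 5 members (10.9% of features), the others being Samd9l (-0.47, adjusted p = 0.0987), Ifit1 (1.04, adjusted p = 0.16), Oasl2 (0.83, adjusted p = 0.347) and Ifit3 (0.47, adjusted p = 0.438).
Oas3, which makes the RNase L activator, was 3.75, 3.76 and 3.29 in WT and 5.93, 3.23 and 4.78 in Tg pools, with a difference of 1.05 ± 0.37 (adjusted p = 0.112), and Irf7 differed by 1.09 ± 0.49 (adjusted p = 0.239). In these genes too Tg arrays 1 and 3 were the high ones.

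The rest of the members were mixed at PND 0. The median change of the members was 0.14, of the type I class 0.18 and of the gamma class -0.03, where the median of all features was -0.03. On Tg arrays 1 and 3, where Rsad2 was 10.55 and 9.73, the RNA sensor Ifih1 was 6.20 and 5.47 (WT 5.39 to 5.83), Stat2 4.61 and 5.11 (WT 4.77 to 5.59), Usp18 4.59 and 3.95 (WT 3.27 to 4.55) and Ifit2 4.10 and 4.36 (WT 3.91 to 4.56). The 2 arrays were also those on which the erythroid list was high, with a mean over 7 markers of 7.28 and 6.61 against 3.69 on Tg array 2 and 3.67 to 4.05 in WT. On these 2 arrays 5 of the 7 markers lay above background, with Alas2 and Slc4a1 the brightest, and Epor and Klf1 did not. The muscle list was high on all 3 Tg arrays, Tg array 2 included. The part of these cells in the Rsad2 and Isg15 levels was not tested.
The spread of PND 0 weighs on both calls. Fitted on the 6 arrays of this age alone, limma gave adjusted p = 0.851 for Rsad2 and 0.862 for Isg15, and with weights for the spread of each group, chosen after seeing the data, 0.0252 and 0.136. Without Tg array 1 the change of Rsad2 was 2.75 and stayed called, and that of Isg15 was 1.56 and was not (adjusted p = 0.197). Without Tg array 2 they were 5.48 and 3.83. Isg15 also lost its call without Tg array 3, WT array 1 or WT array 2 (adjusted p = 0.0734, 0.0511 and 0.0553).

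**Figure D4:**
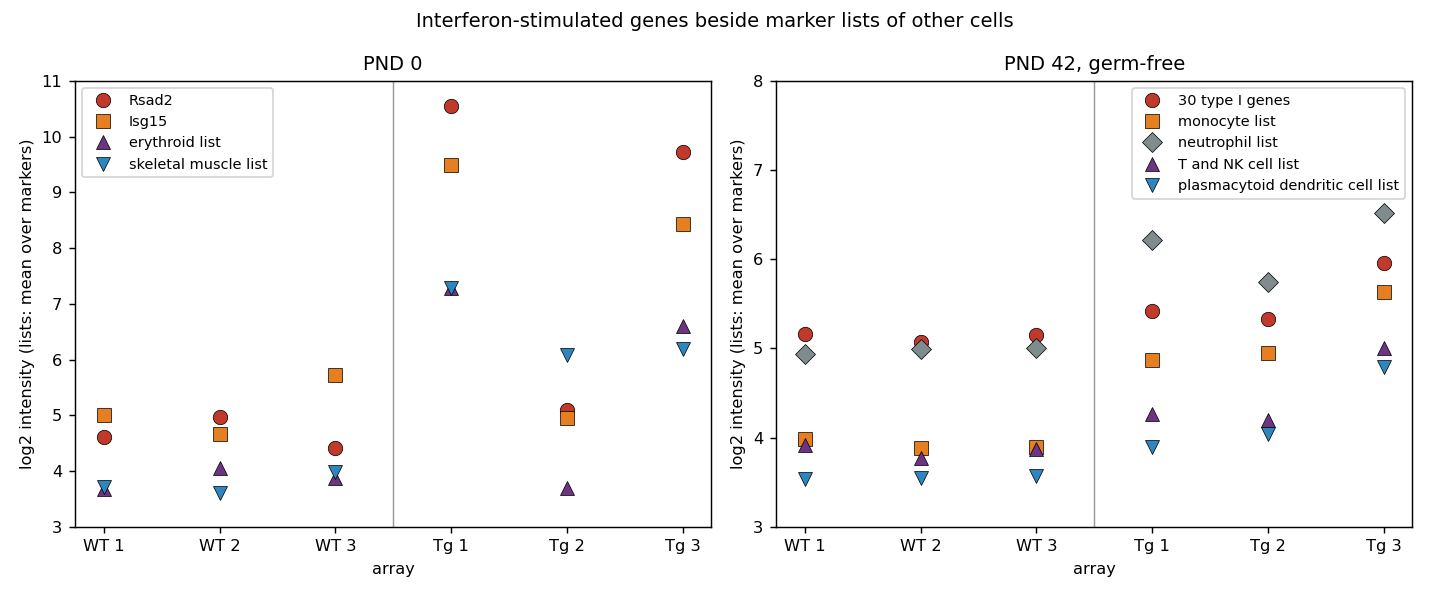
Points give log2 intensity on each array, for genes and for the mean over the markers of a cell type, at PND 0 (left) and in GF mice at PND 42 (right), with WT arrays left of the grey line and Tg arrays right of it. At PND 0 Rsad2, Isg15 and the erythroid list are high on Tg arrays 1 and 3 and the muscle list on all 3 Tg arrays; in GF mice all 4 cell lists and the type I genes are highest on Tg array 3.

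At PND 3, 0 of 34 members rose (2.17% of features) and 1 fell (1.87%), namely Stat2. Stat2, the subunit of the ISRE-binding complex with the activation domain, was 6.55, 6.79, 6.85 and 6.86 in WT and 5.74, 6.54, 5.73 and 6.15 in Tg, a difference of -0.72 ± 0.20 (adjusted p = 0.0322). All 4 Tg pools were below the WT pools, though the highest of them, array 2, was close to the lowest WT pool. The groups also did not overlap in Oas1a, a 2-5A synthetase, with 5.50, 5.64, 5.60 and 5.44 in WT and 5.66, 6.55, 6.49 and 5.93 in Tg (0.62 ± 0.26, adjusted p = 0.253), which makes 2 such members against 10.5% of features. Cxcl10 had the largest difference, 1.30 ± 0.52, which did not pass the limit (adjusted p = 0.215), and Parp14, an ADP-ribosyltransferase, differed by -0.49 ± 0.16 (adjusted p = 0.0804).
The median change was 0.10 over the members and 0.00 over all features. Without WT array 1 Cxcl10 was called as well, and without Tg array 2 Gbp3 was called as lower. Stat2 was not called without WT array 2, 3 or 4 or Tg array 1 or 3, with changes of -0.71 to -0.62 there. Of 11 alveolar macrophage markers 0 rose and 3 fell between genotypes, with a median change of -0.16. Their mean was 9.39 to 9.46 in WT and 8.98 to 9.31 in Tg pools, without overlap. Of 5 monocyte markers 3 rose and 1 fell, and of 10 neutrophil markers 2 rose and 0 fell. The part of these cells in the Stat2 level was not tested.

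In the gamma class the pools of PND 3 differed far more within a genotype than the genotype means did. WT array 1 read at least 1 log2 unit above each of the other WT pools in 6 members, Cxcl9, Cxcl10, Gbp2, Gbp3, Oasl2 and the receptor-transporting Rtp4, where 0.498% of all features did so. Tg array 2 read as far above each of the other Tg pools in 10 members, Cxcl9, Cxcl10, Gbp2, Gbp3, Irgm1, Isg15, Ifit1, Oasl2, Irf7 and the nucleic acid sensor Zbp1, against 0.142% of features. On the other 6 PND 3 pools no member did. Gbp3 was 5.98, 4.43, 4.49 and 4.72 in WT and 4.17, 5.39, 3.80 and 4.03 in Tg pools, and Oasl2 5.72, 3.96, 3.69 and 4.27 and 4.39, 6.01, 4.72 and 4.41.
The 2 arrays thus shared Cxcl9, Cxcl10, Gbp2, Gbp3 and Oasl2, while Rsad2 on WT array 1 (5.99) was the lowest of the WT pools. Beside this, the T and NK cell list was 3.79 on WT array 1 and 3.88 on Tg array 2 against 3.54 to 3.80 on the other PND 3 pools, with 1 of 11 markers above background on each, and Ifng had group means of 3.21 and 3.24. The monocyte list was 5.84 on WT array 1 against 4.52 to 5.09 in the other WT pools and 6.72 on Tg array 2 against 5.43 to 6.45 in the other Tg pools. The neutrophil list was 6.21 on WT array 1 against 5.56 to 5.79 in the other WT pools. In Tg pools it was 6.48 on array 2 and highest, 7.27, on array 3. The part of these cells was not tested.
With both arrays left out, a choice made after seeing the data, 0 members rose and 1 fell between genotypes, again Stat2 (-0.96, adjusted p = 0.0078).

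At PND 10, 0 of 34 members rose (1.13% of features) and 0 fell (0.435%) by limma at an adjusted p of 0.05, and 2 had an unadjusted p under 0.05. These were the RNA sensor Dhx58, with 5.54, 5.03, 5.77 and 4.94 in WT and 4.34, 4.53, 5.13 and 4.67 in Tg (-0.65 ± 0.26, adjusted p = 0.286), and Ifit2, with 3.55, 3.33, 3.33 and 3.84 in WT and 4.01, 3.67, 4.13 and 4.42 in Tg (0.55, adjusted p = 0.346). The genotypes overlapped in all 34 members, where 7.08% of features did not overlap. The median change was 0.08 over the members and 0.01 over all features.

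At PND 42 in SPF housing 1 member rose (2.72% of features) and 0 fell (1.77%). Oas1a was 5.49, 6.18, 5.61 and 6.15 in WT and 6.72, 6.86, 6.47 and 6.98 in Tg mice, 1.87-fold higher (0.90 ± 0.26, adjusted p = 0.039), with all 4 Tg mice above the WT mice. The groups did not overlap either in Bst2, 7.93, 8.22, 8.04 and 8.10 in WT and 8.37, 8.48, 8.69 and 8.72 in Tg (0.49, adjusted p = 0.342), in Oasl2, 3.68, 3.66, 3.86 and 3.63 and 4.73, 4.001, 4.16 and 4.28 (0.59, adjusted p = 0.59), and in Oasl1, which was near background (0.36, adjusted p = 0.243). These 4 members compare with 11.2% of features.
Cxcl9 was the member with the largest difference, -1.16 ± 0.64, with 2 of 4 Tg mice below all WT mice, and did not pass the limit (adjusted p = 0.468). The call of Oas1a was lost without WT array 1 or 3 or Tg array 1, 2 or 4 (changes of 0.78 to 0.91 there), with the array medians equalised (adjusted p = 0.0587) and with the quantile normalization repeated (adjusted p = 0.0702). The median change was 0.04 over the members and -0.02 over all features. In the same mice the monocyte list was 4.41 to 4.72 in Tg and 3.89 to 4.08 in WT, without overlap. It had 2 of 5 markers above background on each Tg array and 1 or 2 on the WT arrays. Of these markers 1 rose and 0 fell by limma (2.72% and 1.77% of features), with a median change of 0.03. Itgam had means of 4.18 in WT and 7.46 in Tg, while Ccr2 (5.86 and 5.50) and Vcan (3.52 and 3.16) were lower in Tg. The neutrophil list was 5.20 to 5.78 in Tg and 4.86 to 5.03 in WT, also without overlap. Of its 10 markers 2 rose and 1 fell, with a median change of 0.14. S100a9 had means of 3.14 in WT and 5.38 in Tg, and Csf3r went the other way, 7.48 and 5.97. The plasmacytoid dendritic cell list was 3.73 to 4.26 in Tg and 3.52 to 3.66 in WT, without overlap as well. Of its 5 markers 1 rose and 0 fell, with a median change of 0.14. Cox6a2 had means of 4.27 in WT and 5.73 in Tg, and Siglech 3.71 and 3.66. The part of these cells in the Oas1a level was not tested.

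Of the 5 genotype comparisons, that of germ-free mice gave the most calls. At PND 42 in GF housing 4 members rose (3.14% of features) and 0 fell (1.77%), all of type I. Usp18, which removes Isg15 from its targets and dampens the type I receptor, was 3.33, 3.30 and 3.48 in WT and 4.45, 3.90 and 5.65 in Tg (1.30 ± 0.31, adjusted p = 0.00806). Oasl2 was 3.69, 3.27 and 3.43 in WT and 4.52, 4.71 and 6.34 in Tg (1.73 ± 0.44, adjusted p = 0.0155). Rtp4 was 4.54, 4.54 and 4.95 in WT and 5.92, 5.93 and 7.25 in Tg (1.69 ± 0.45, adjusted p = 0.0234). Oasl1 was 3.53, 3.09 and 3.57 in WT and 4.08, 3.75 and 4.33 in Tg (0.66 ± 0.17, adjusted p = 0.0215), with both group means near background. Usp18 and Oasl2 were near background in WT (means of 3.37 and 3.46), so that their differences are against a level that was not clearly measured. In these 4 genes all 3 Tg mice lay above the WT mice, and array 3 was the highest.
The genotypes did not overlap in 15 of 34 members, against 21.3% of features. Among those not called were Bst2 (0.83, adjusted p = 0.0783), the apoptosis-linked Xaf1 (0.69, adjusted p = 0.179), Oas3 (0.85, adjusted p = 0.257), Oas2 (0.57, adjusted p = 0.259), Parp14 (0.40, adjusted p = 0.287), Gbp3 (0.69, adjusted p = 0.311) and Zbp1 (0.52, adjusted p = 0.503). Ifi35 was lower without overlap (-0.26, adjusted p = 0.663). The median change was 0.33 over the members, 0.35 in the type I class and 0.25 in the gamma class, and -0.03 over all features.

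One mouse stood apart. Tg array 3 was the highest of the 36 arrays in 9 members and at least 1 log2 unit above both other GF Tg mice in 7, all of type I: Rsad2, Ifit1, Oas2, Oasl2, Irf7, Usp18 and Rtp4 (0.598% of features). Ifit1 was 3.42, 3.20 and 5.18 and Oas2 3.92, 3.89 and 5.21 in the Tg mice, against 3.64, 3.47 and 3.67 and 3.80, 3.84 and 3.67 in WT. Without this array no member was called, and the changes were 0.81 for Usp18, 1.15 for Oasl2, 1.24 for Rtp4 and 0.52 for Oasl1 (adjusted p = 0.177, 0.243, 0.261 and 0.213). Without WT array 2, Usp18 alone was called. Fitted on the 6 GF arrays alone, the adjusted p-values of the 4 genes were 0.0575 to 0.15.
On the same array the T and NK cell list was 5.0, with 9 of 11 markers above background, against 4.26 and 4.20 in the other GF Tg mice and 3.77 to 3.92 in WT. The plasmacytoid dendritic cell list, of cells known to make much type I interferon, was 4.79, with 4 of 5 markers above background. It was 3.90 and 4.04 in the other Tg mice and 3.54 to 3.57 in WT. Siglech was 4.85 on array 3, 3.71 and 3.65 in the other Tg mice and 3.42 to 3.87 in WT. Cox6a2 was 6.71 on array 3, 5.59 and 5.58 in the other Tg mice and 3.85 to 4.01 in WT. Neither this marker nor Ccr9 was high on that array alone. In the Tg PND 0 pools Cox6a2 was 5.51 to 5.79, and at PND 10 it was 4.87 to 5.79 in WT and 4.54 to 5.76 in Tg. In the SPF Tg mice Cox6a2 was 4.64, 5.70, 6.21 and 6.37. Ccr9 was 4.63 on GF Tg array 3, 4.70 on WT PND 10 array 4 and 4.48 on SPF Tg array 4. The monocyte list was 5.63 against 4.87 and 4.95 in the other Tg mice and 3.88 to 3.98 in WT. Above background were 3 of its 5 markers, against 2 in the other Tg mice and 1 in WT. Between genotypes 1 of them rose and 0 fell by limma (3.14% and 1.77% of features), with a median change of 0.36. Itgam had means of 3.72 in WT and 8.48 in Tg, and Vcan 3.55 and 3.56. The neutrophil list was 6.52 against 6.22 and 5.75 and 4.94 to 5.01. Of its 10 markers 3 rose and 1 fell, with a median change of 0.17. S100a9 had means of 3.175 in WT and 8.44 in Tg, and Csf3r 7.06 and 5.62. The part of these cells was not tested.

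**Figure D5:**
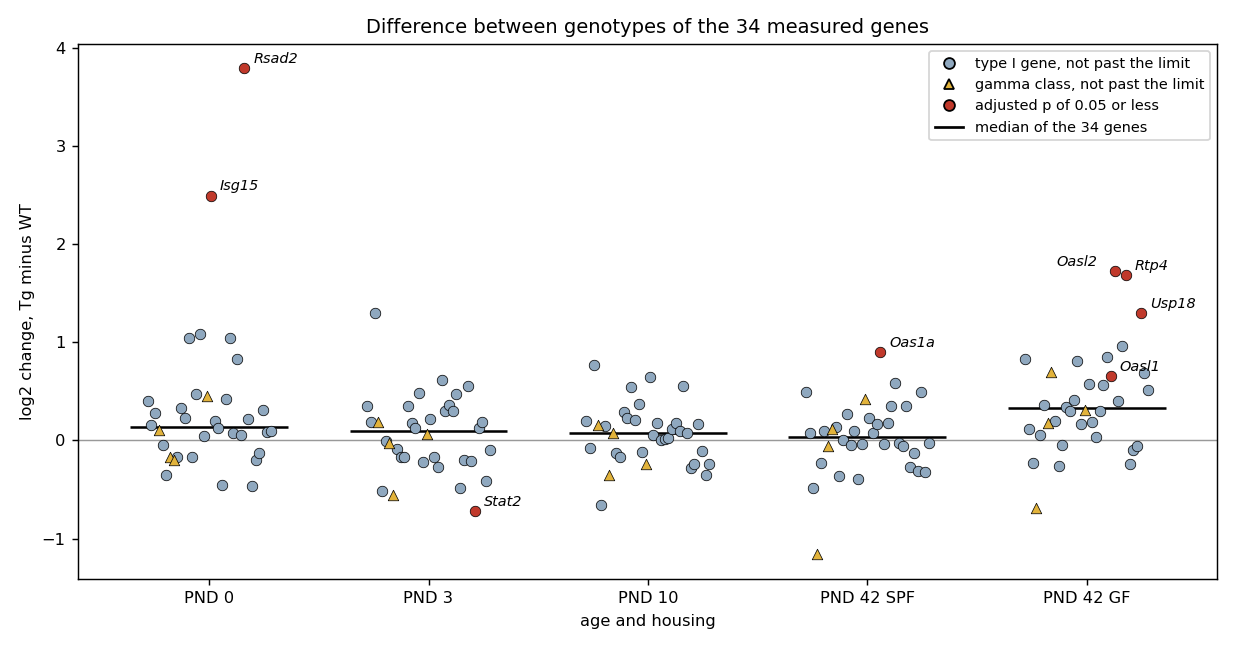
Each symbol is 1 of the 34 measured genes, circles for type I and triangles for the gamma class, with the log2 change of Tg minus WT on the vertical axis for each age and housing; red marks genes past the adjusted p of 0.05 and the black line the median of the 34 genes. The red symbols are 2 at PND 0, 1 at PND 3 (below 0), 0 at PND 10, 1 in SPF and 4 in GF mice, and no triangle is red.

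More members were called from PND 0 to PND 3 than between genotypes at any age. Between PND 0 and PND 3 in WT mice 13 members rose (14.0% of features) and 0 fell (12.0%), 10 of 30 type I genes and 3 of 4 of the gamma class. Parp14 rose by 2.05 ± 0.17 (adjusted p = 7e-11), the ubiquitin ligase Herc6 by 1.52 ± 0.17 (adjusted p = 4.71e-08), Stat2 by 1.57 ± 0.22 (adjusted p = 1.1e-06) and Gbp2, from a mean of 3.67 near background, by 3.43 ± 0.43 (adjusted p = 2.78e-07). The 3 nucleic acid sensors Ifih1, Dhx58 and Zbp1 and the 3 measured gamma-induced GTPases all rose, as did Bst2, Samd9l, Ifi35 and Trim25.
In Tg mice 13 members rose over the same interval (16.0% of features) and 3 fell (14.0%). Gbp2 rose by 3.57 ± 0.43 (adjusted p = 9.38e-08), Cxcl10 by 2.25 ± 0.57 (adjusted p = 0.00236), Cxcl9 by 1.81 ± 0.70 (adjusted p = 0.0477) and Oas1a by 1.67 ± 0.28 (adjusted p = 1.81e-05). The Tg PND 0 means of Gbp2, Cxcl10 and Cxcl9 (3.505, 3.84 and 3.65) were near background, so that these rises too start from a level that was not clearly measured. Those that fell were Rsad2 (-2.42 ± 0.69, adjusted p = 0.00694), Isg15 (-1.93 ± 0.57, adjusted p = 0.00944) and Oasl2 (-1.39 ± 0.41, adjusted p = 0.00925).
The falls of Rsad2 and Isg15 rest on Tg PND 0 arrays 1 and 3, the arrays with the high erythroid list, while Tg PND 0 array 2 lay below all 4 Tg PND 3 pools in both genes. Without array 1 the changes were -1.38 for Rsad2 and -1.001 for Isg15 (adjusted p = 0.154 and 0.208), and without array 3 they were -1.78 and -1.53 (adjusted p = 0.0803 and 0.0771). Without array 2 they were -4.11 and -3.27. Neither was called in a fit of only the compared groups, and the part of the erythroid list was not tested. Oasl2 stayed called without each of these arrays.
The lists of risers shared 9 genes, which is 69.2% of each, namely Stat2, Ifih1, Bst2, Gbp2, Zbp1, Parp14, Herc6, Trim25 and Samd9l. The epithelium list was above 8.6 at PND 0 and below 6 at PND 3, and its part in these changes was not tested. With the array medians equalised, which raised every change from PND 0 to PND 3 by 0.24 in WT and 0.25 in Tg, 20 members rose in WT, the 7 added being Rsad2, Oas1a, Irf9, Cxcl9, Cxcl10, Xaf1 and Eif2ak2. Under that setting 38.7% of all features rose and 7.73% fell in WT, and in Tg mice, where 18 members rose and 3 fell, 46.3% and 9.44%. With both high PND 3 arrays left out, 12 members rose and 2 fell in WT, where Oasl2 and Rtp4 fell, and 12 rose and 7 fell in Tg, where Ifit1, Mx2, Usp18 and Rtp4 were added to the fallers.

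After PND 3 few members changed. From PND 3 to PND 10, 0 rose and 0 fell in WT (0.0311% and 0.100% of features) and in Tg mice (0.518% and 0.936%), with 8 and 11 members at an unadjusted p under 0.05. Rsad2 had the largest difference in each genotype, -2.49 ± 0.64 in WT (adjusted p = 0.149), where the ages did not overlap, and -1.73 ± 0.64 in Tg (adjusted p = 0.271). It was called as lower in WT with array weights. From PND 10 to PND 42 in WT mice 1 member rose (1.32% of features) and 0 fell (1.19%), Ifih1, which was 6.58, 6.54, 6.38 and 6.61 at PND 10 and 7.15, 7.28, 7.42 and 7.29 at PND 42 (0.76 ± 0.15, adjusted p = 0.00218). Cxcl9 differed by 2.05 ± 0.64, without overlap (adjusted p = 0.0976).
In Tg mice 2 members rose (2.58% of features) and 0 fell (2.03%), Oas1a by 1.23 ± 0.26 (adjusted p = 0.0033) and Stat2 by 0.71 ± 0.20 (adjusted p = 0.0313). Stat2 lost its call without Tg PND 10 array 1, 3 or 4 or Tg PND 42 array 1 or 4.

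Housing gave no call by limma. Between GF and SPF mice at PND 42, 0 members rose or fell in WT (0.0104% and 0.0553% of features) and 0 in Tg mice (0.0760% and 0.0657%), with 1 and 9 members at an unadjusted p under 0.05. In Tg mice the difference was 1.38 ± 0.42 for Rtp4 (adjusted p = 0.289), 0.86 ± 0.29 for Usp18 (adjusted p = 0.335) and 0.51 ± 0.16 for Oasl1 (adjusted p = 0.315), and in WT the smallest p was that of Eif2ak2 (-0.46 ± 0.18, adjusted p = 0.92).
Whether the genotype difference itself depended on age or housing was tested as an interaction. It differed between PND 3 and PND 0 in 1 member, which fell, against 0 that rose (1.58% and 1.69% of features): Rsad2, by -4.00 ± 0.98 (adjusted p = 0.018). For Isg15 it was -2.28 ± 0.81 (adjusted p = 0.134). The call of Rsad2 was lost without Tg PND 0 array 1 or array 3. Between PND 42 SPF and PND 3 there were 0 calls in either direction (0.705% of features rose and 0.522% fell), with 4 members at an unadjusted p under 0.05, and between GF and SPF 0 calls (0.00346% and 0%), with 2 such members. The excess of GF over SPF in the genotype difference of type I genes was therefore not shown for any member, the median being 0.29.

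The genes around the members were read from lists of the pathway. Of 20 interferon genes 14 had a feature of their own. Over the 5 genotype comparisons 0 rose and 1 fell, Ifna12 at PND 3 (-0.73 ± 0.18, adjusted p = 0.0148), whose WT and Tg means were 3.95 and 3.22, near background. Ifnb1 had group means of 2.74 to 3.04 and Ifng of 3.10 to 3.41, also near background.
Of the 9 receptors and kinases 3 rose in Tg at PND 3, 3 in SPF and 3 in GF mice, 0 at PND 10, and 1 fell at PND 0. Of all features 2.17%, 2.72%, 3.14% and 1.13% rose in these comparisons, in this order, and 1.59% fell at PND 0. Il10rb, the chain that interleukin 10 and the lambda interferons share, rose by 0.78 ± 0.13 at PND 3 (adjusted p = 0.000199), 0.71 ± 0.13 in SPF (adjusted p = 0.000586) and 0.92 ± 0.15 in GF mice (adjusted p = 0.000121). Ifngr2 fell by 0.52 at PND 0 and rose by 0.39 at PND 3, 0.79 in SPF and 0.84 in GF mice (adjusted p = 0.0192, 0.0469, 2.21e-05 and 8.03e-05). Jak2 rose by 0.96 in GF mice (adjusted p = 0.0161) and Ifnar1 by 0.74 at PND 3 (adjusted p = 0.0222).

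Of 12 measured sensors and adaptors (Ifi204 had no feature of its own) 1 rose and 2 fell at PND 3, 1 rose and 1 fell in SPF mice and 1 fell at PND 0. The shares of all features were 2.17% and 1.87% at PND 3, 2.72% and 1.77% in SPF mice and 1.59% at PND 0. The kinase Ikbke rose by 1.36 ± 0.27 at PND 3 (adjusted p = 0.0016) and 1.22 ± 0.27 in SPF mice (adjusted p = 0.00446), while Mavs, the adaptor of the RNA sensors, fell by 0.81 ± 0.21 (adjusted p = 0.0181) and the sensor Ddx58 by 0.55 ± 0.14 (adjusted p = 0.0203) at PND 3. Tlr7 fell by 0.62 at PND 0 (adjusted p = 0.0359). In the same comparison 0 of 11 alveolar macrophage markers rose and 3 fell, with a median change of -0.45. Of 10 skeletal muscle markers 8 rose and 0 fell, and of 7 erythroid markers 4 rose and 0 fell. The part of these cells in the PND 0 falls of Tlr7, of Ifngr2 above and of Ptpn6 below was not tested.
Of 11 transcription factors and feedback genes 1 fell at PND 0, 1 rose at PND 3, at PND 10 and in SPF mice, and 2 rose in GF mice. Against this, 1.59% of all features fell at PND 0, and 2.17%, 1.13%, 2.72% and 3.14% rose in the other comparisons. The riser in all 4 was Socs3, an inhibitor of cytokine receptors that acts chiefly on the interleukin 6 family, by 2.49 ± 0.29 at PND 3 (adjusted p = 1.09e-06), 1.20 ± 0.29 at PND 10 (adjusted p = 0.0206), 1.37 ± 0.29 in SPF (adjusted p = 0.00245) and 1.52 ± 0.33 in GF mice (adjusted p = 0.00372). The faller was the phosphatase Ptpn6 (-0.67 ± 0.19, adjusted p = 0.0413). Socs1, which restrains interferon receptors, rose by 0.72 ± 0.21 in GF mice (adjusted p = 0.0422), from a WT mean of 3.47, near background.
Of 22 measured further genes induced by interferon gamma, 1 rose at PND 0, Serping1 by 1.41 ± 0.34 (adjusted p = 0.014), 1 fell at PND 3, Gbp7 by 0.91 ± 0.21 (adjusted p = 0.0063), 0 changed at PND 10, 1 rose in SPF and 3 rose in GF mice, Socs1 among them since it is on both lists. The shares of all features were 2.74% that rose at PND 0, 1.87% that fell at PND 3, and 2.72% and 3.14% that rose in SPF and GF mice. Serping1 at PND 0 was 3.41, 5.91 and 5.49 in WT and 7.12, 5.76 and 6.17 in Tg pools, with overlap. Its group means at all later ages were 3.15 to 3.33, near background. Gbp6, Irgm2, Tgtp1 and Tgtp2 had no feature of their own, nor did Ifna1, Ifna2, Ifna5, Ifna7, Ifnz and Ifnl3 among the interferon genes. Slfn5 rose in both housings, by 1.22 ± 0.32 (adjusted p = 0.0221) and 1.69 ± 0.37 (adjusted p = 0.00449). Its WT means of 3.22 in SPF and 3.38 in GF mice were near background. In the GF Tg mice it was 4.33, 4.98 and 5.90, highest on array 3.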

How the data were processed

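RNA of Ly-6G-depleted lung lavage cells was amplified and hybridised to 36 Affymetrix Mouse Gene 1.0 ST arrays. The deposited values are log2 intensities made by the authors in Partek (version 6.5 in the submitters' processing notes) by RMA with adjustment for GC content and probe sequence, quantile normalization and median polish, so that levels are relative within the series and small differences between groups can be compressed. Of 35556 features 6616, numbered below the first annotated one, were left out and 28940 tested. With limma 3.58.1 in R 4.3.3, 1 mean per group was fitted over all 36 arrays, with 16 contrasts and Benjamini-Hochberg adjustment over all features within each, two-sided. A rise or fall is an adjusted p of 0.05 or less. A single-gene exact permutation test could not go below 0.1 with 3 against 3 arrays or 0.0286 with 4 against 4. The fit was tested on simulated data, in which each feature had the same spread in every group. In the measured arrays the spread differed, the median SD of the members being 0.391 to 1.192 of the pooled SD between groups. The simulation therefore does not cover calls that rest on 1 or 2 high arrays. Samples were grouped by their labels. The members, gene lists, cell markers and tests were chosen with earlier results of these data known. Every member is named, 7 genes are given on every array, and each genotype comparison gives up to 6 called members of largest change. Alternatives were fits of only the compared groups, array weights, repeated quantile normalization, median centring, a filter on dim features, a 2-fold limit, a trended robust prior, a single feature for each gene, a replicate block and leaving out each array. Same-numbered arrays correlated at -0.126 to 0.244 over 18 pairs, 1 of them over 0.1, so that numbers were not taken as pairs. Among the cell markers, Ear2, Ly6c2, Lck, Runx2, Klk1 and Ahsp had no feature of their own, and some other listed genes are not reported here.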

Additional observations from a re-analysis of the deposited data

Results flagged for a closer look

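In the groups of 4 arrays, 54 combinations of a group and a measure were tested for a single array standing apart, by the gap to its nearest neighbour as a share of the group's range, and 4 passed. Chance flags about 1 in 20. The type I class mean of Tg PND 3 array 2 was 5.94 against 5.11 to 5.24 in the other Tg pools, a ratio of 0.843. Gbp2 on WT PND 3 array 1 was 8.73 against 6.47 to 6.64, a ratio of 0.927. Irf7 on array 1 of the SPF Tg mice at PND 42 was 4.85 against 3.65 to 3.72, a ratio of 0.949. Cxcl10 on array 3 of the SPF WT mice at PND 42 was 5.58 against 3.81 to 4.07, a ratio of 0.852.

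The genotype difference of Rsad2 changed between PND 0 and PND 3 by -4.00 ± 0.98 on the log2 scale (limma interaction, adjusted p = 0.018). Without Tg PND 0 array 1 it was -2.95 (adjusted p = 0.0885) and without array 3 -3.36 (adjusted p = 0.0572), and fitted on only the compared groups it was not called. What lies behind these values was not tested.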

How the results depend on the processing

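Of 139 single changes recomputed under other settings, 99 kept their direction and side of the limit, 40 kept only the direction and 0 reversed. Of 323 counts of called members 271 stayed within 1.5 times and 52 moved, and the cause was not tested. Fitted on only the compared groups, the counts became 0 at PND 0, 0 at PND 3, 3 in SPF mice (Oasl2 and Bst2 added), 0 in GF mice, 1 for WT PND 10 minus PND 3 (Rsad2), 2 for WT PND 42 minus PND 10 (Cxcl9 added) and 0 for the PND 3 minus PND 0 interaction. Array weights gave 2 at PND 3 (Parp14 added), 1 for WT PND 10 minus PND 3 and 4 for WT PND 42 minus PND 10. Weights by group variance, added after seeing the data, gave 1 at PND 0, 2 at PND 3, 1 for WT PND 10 minus PND 3 and 3 for WT PND 42 minus PND 10. Repeated quantile normalization gave 0 at PND 3 and 0 in SPF mice, median centring 0 in SPF mice and 20 for WT PND 3 minus PND 0, and the filter on dim features 2 at PND 3. A 2-fold limit gave 0 at PND 3, 0 in SPF mice, 0 for WT and 1 for Tg PND 42 minus PND 10. Keeping all features, also added later, gave 0 in SPF mice. With the replicate block the count in SPF mice was 0 (Oas1a, adjusted p = 0.055), and the block moved no other count of calls by over 1.5 times.

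Leaving out 1 array at a time, the counts ran from 1 to 3 at PND 0, 0 to 2 at PND 3, 0 to 1 in SPF and 0 to 4 in GF mice, and stayed 0 at PND 10. They stayed 0 for WT PND 10 minus PND 3, both housing comparisons and both other interactions, and 1 for WT PND 42 minus PND 10. They ran from 11 to 15 for WT and 14 to 18 for Tg PND 3 minus PND 0, 0 to 2 for Tg PND 10 minus PND 3 (2 without Tg PND 3 array 4), 1 to 2 for Tg PND 42 minus PND 10 and 0 to 3 for the PND 3 minus PND 0 interaction (3 without Tg PND 0 array 2). Rsad2 at PND 0 stayed called at 2.75 to 5.48, while Isg15 ran from 1.56 to 3.83, Stat2 at PND 3 from -0.89 to -0.62, Oas1a in SPF mice from 0.78 to 1.01, and in GF mice Usp18 from 0.81 to 1.68, Rtp4 from 1.24 to 1.91, Oasl2 from 1.15 to 2.06 and Oasl1 from 0.50 to 0.80. The average over several features of a gene was not run, since no member had several. Genes near background limit what could be seen of Ifit3, Mx1, Mx2, Oasl1 and Cmpk2.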
